A study of Mus musculus with 24 samples.

Results

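Gene expression was compared between the late and the early light phase in whole eyes of mice kept under a summer-like condition, LW (long day and warm). The late group was the 4 LW eyes collected at 14 and 18 h after midnight, and the early group was the 4 LW eyes collected at 6 and 10 h, so that 8 of the 24 eyes of the study were compared with each other. The groups were set by the collection time in the sample labels alone, and no expression value was used to form them. All 8 eyes came from male CBA/N mice, 10 weeks old at the start, which had been kept for 4 weeks under 16 h of light, 8 h of dark and 27 °C. The lights were on at all 4 of these times. Time of day and hours spent in the light therefore cannot be told apart in this comparison. The winter-like condition, SC (short day and cold), had 8 h of light, 16 h of dark and 10 °C in mice of the same strain, sex and age, and its eyes at the same clock times were lit at 10 and 14 h only. Each time and condition had 2 eyes, and the labels do not say whether these came from different mice or cages, so the p-values here cover only the scatter from eye to eye. Each library is a mixture of retina, pigment epithelium, lens, cornea, sclera and attached tissue, which limits it as a model of any single cell type.

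In mammals the circadian clock is a transcriptional loop in which CLOCK or its paralog NPAS2 pairs with ARNTL (BMAL1), binds E-boxes and switches on the Per and Cry repressors, REV-ERB receptors and the PAR bZIP factors DBP, TEF and HLF. REV-ERB and ROR receptors compete for elements in the Arntl and Npas2 genes, and the PAR bZIP factors act through D-boxes. Retinal photoreceptors hold such a clock together with a light-driven dopamine and cyclic AMP system, and rod and cone genes are known to cycle over the day. The corneal epithelium is renewed by dividing basal cells, and its mitoses are known to follow a daily rhythm.

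Library totals were between 19543401 and 28859071 expected counts over the 24 eyes, and the ranges of the early (20722926 to 26189246) and late eyes (19543401 to 28859071) overlapped. Levels are expected counts scaled by TMM to a common library size ("scaled expected counts"), and differences are log2 differences of these counts plus 1. The labelled tissue was checked with genes that define parts of the eye. In the 8 lit LW eyes the rod arrestin Sag stood at 39873 to 71729, the lens crystallin Cryaa at 358116 to 412893, the corneal keratin Krt12 at 101021 to 123379 and the pigment epithelium isomerase Rpe65 at 2439 to 4447 scaled expected counts. The liver gene Alb was at 1.17 or less in these 8 eyes. It reached 1807 in SC 6 h replicate 2 and 236 in SC 10 h replicate 2, and the counts of calls in SC are also given without these 2 libraries.

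Of 18233 genes tested, 155 (0.85%) were higher late and 171 (0.938%) were lower late at an adjusted p under 0.05 (limma with Benjamini-Hochberg adjustment), 326 genes or 1.79% in all. Their median absolute log2 difference was 0.34, against 0.077 over all genes tested, and 101 of them differed by at least 0.5 and 29 by at least 1. In whole eyes, fewer cells of a type and less RNA per cell cannot be told apart. The 4 late eyes lay wholly above the 4 early eyes in 103 of the 155 and wholly below them in 115 of the 171. Over all genes tested, 2.02% had all late eyes above and 2.2% all late eyes below the early ones. In 210 of the 326 the step between 10 and 14 h was the largest of the 3 steps between neighbouring times, in 81 it was the step between 6 and 10 h and in 35 the step between 14 and 18 h. The late minus early difference gives the step from 10 to 14 h more weight than the others. Genes called by it therefore tend to have their largest step there, and these counts do not place the change.

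This count takes the spread between the 2 eyes of a time as its error. When the 8 eyes were fitted with only a late and an early mean, so that differences between 6 and 10 h and between 14 and 18 h entered the error, 9 genes passed, 6 higher and 3 lower. Both fits give the same log2 differences and differ in their error. The fit with late and early means also left the dark LW eyes and the SC eyes out of the error. With these left out but a mean for each of the 4 times, 148 genes were called, so the fall from 326 to 9 joins both changes. In the fit with late and early means, 302 of the 326 had an unadjusted p under 0.05, against 1222 (6.7%) of all genes tested. The 326 were picked on these same differences, so this count is no further support for them. Without the 18 h eyes 89 genes were called, without the 6 h eyes 705 and without the 10 h eyes 763. Here the eyes of a time were left out of the contrast only and stayed in the scaling, the filter and the estimate of error. The same holds below wherever all eyes of a lit time are left out. Leaving out single eyes altogether gave 173 (without LW 10 h replicate 1) to 271.

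The 9 genes that passed both fits were called in every one of the 27 alternative settings tried, and are given first. Il1r1, Pla2r1 and Steap3 among them were picked after their values were seen, whereas the others came from the clock list or from a rule based on size. The rule on size took only called genes whose late and early eyes did not overlap. For genes named by it, here and below, the lack of overlap restates the choice and is no further finding. Pcdh15, which encodes a protocadherin of hair cells and photoreceptors that is mutated in Usher syndrome, stood at 1492 and 1389.7 scaled expected counts at 6 h, 1299.9 and 1269.6 at 10 h, 2833 and 2462 at 14 h and 3093 and 3720.0 at 18 h. Every late eye was above every early eye, and the level rose between 10 and 14 h by 1.04 (adjusted p = 4.47e-05) on the log2 scale. Over the light phase the late eyes were 2.20 times the early eyes (log2 difference 1.14 ± 0.071 SE, adjusted p = 6.95e-09).

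Cbr2, a carbonyl reductase that uses NADPH, was at 6661 and 7036 at 6 h, 7196 and 6914 at 10 h, 9938 and 11478 at 14 h and 11275 and 10768 at 18 h. These values form a low pair of times and a high pair of times with little spread inside each. The log2 difference was 0.64 ± 0.087 SE, adjusted p = 0.000998. The fit with late and early means takes the spread inside a phase as its error and so favours genes where it is small. For genes that passed this fit, little spread inside a phase is therefore no further finding. 5430419D17Rik, for which no role is given here, was at 52.0 and 74.9 at 6 h, 83.9 and 102 at 10 h, 167 and 197 at 14 h and 211 and 265 at 18 h, so that the level was higher at each later time (log2 difference 1.44 ± 0.14 SE, adjusted p = 1.09e-06). Pla2r1, the M-type receptor of secreted phospholipase A2, was at 2857 and 2953 at 6 h, 3178 and 3246 at 10 h, 4177 and 4499.5 at 14 h and 3933 and 4143 at 18 h. Its late eyes were again all above its early eyes (log2 difference 0.45 ± 0.044 SE, adjusted p = 1.2e-06). Steap3, a ferric reductase of endosomes, ranged from 664 to 771 in the early eyes and from 956 to 979 in the late eyes (log2 difference 0.42 ± 0.074 SE, adjusted p = 0.00271).

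The 3 lower genes of the 9 were Npas2, Slc46a2 and Il1r1. Slc46a2, a transporter of the SLC46 family first described in thymic stroma, was at 63.0 and 70.5 at 6 h, 88.8 and 47.9 at 10 h, 20.8 and 15.4 at 14 h and 25.2 and 21.0 at 18 h. The late eyes were all below the early eyes, at a level low enough for single eyes of 1 time to differ widely (log2 difference -1.65 ± 0.29 SE, adjusted p = 0.00294). Il1r1, the signalling receptor of interleukin-1, was at 534 and 474 at 6 h, 621 and 575 at 10 h, 366 and 355 at 14 h and 345 and 371 at 18 h. The fall came between 10 and 14 h, -0.73 (adjusted p = 0.000837), and the difference over the phase was -0.61 ± 0.071 SE, adjusted p = 1.92e-05. In the reference annotation of the same build (GRCm38.p6), Pcdh15 lies at chr10:73096277-74649831, Cbr2 at chr11:120729485-120732025, 5430419D17Rik at chr7:131174402-131306452, Pla2r1 at chr2:60417543-60553326, Steap3 at chr1:120226414-120271081, Dbp at chr7:45705100-45710203, Npas2 at chr1:39193702-39363240, Slc46a2 at chr4:59905899-59915056 and Il1r1 at chr1:40222480-40316201.

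**Figure D1:**
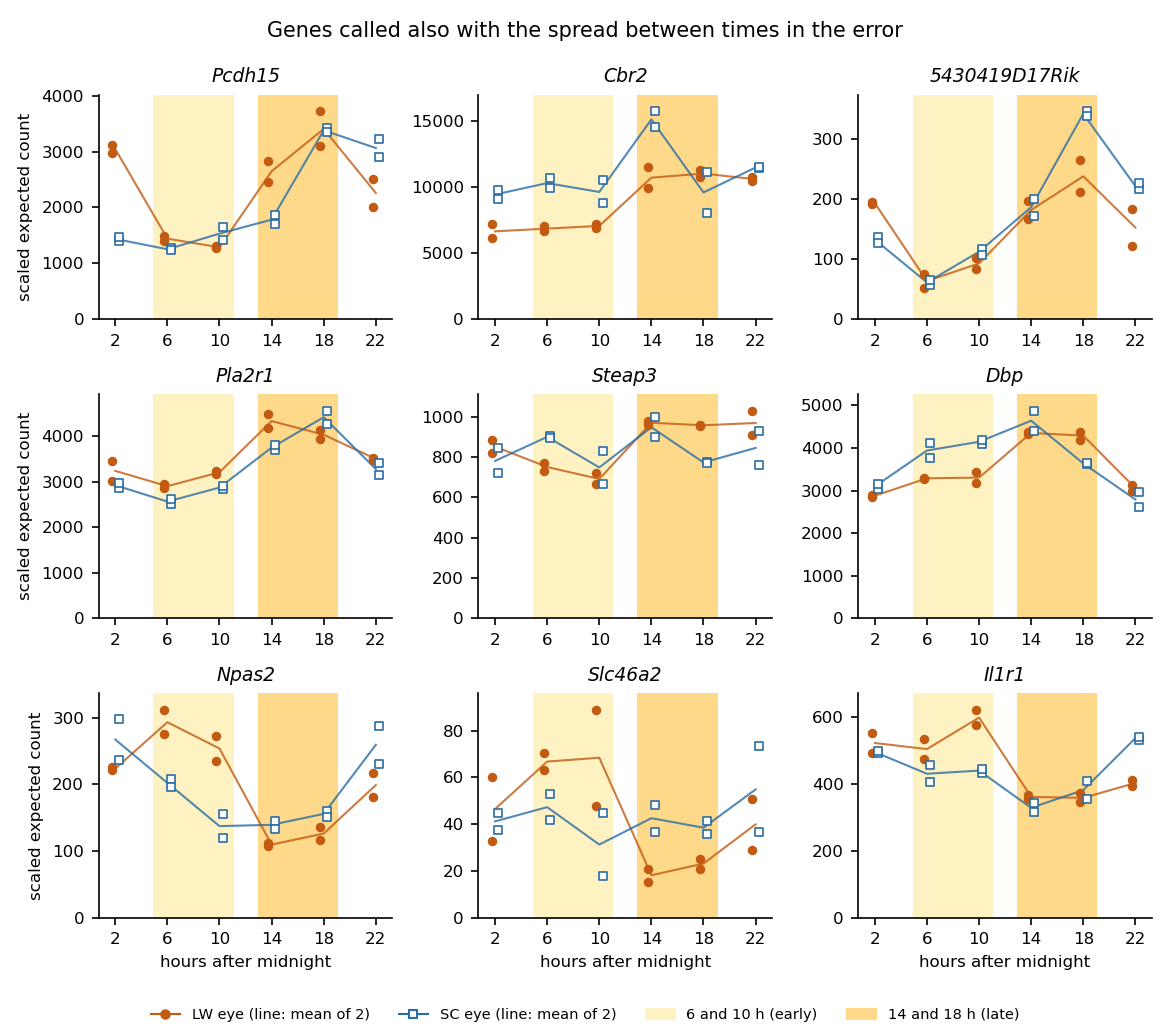
Scaled expected counts (vertical axes, from 0) of the 9 genes against hours after midnight, with filled points for single LW eyes, open squares for single SC eyes, lines through the mean of 2 eyes, and shading for the early (6 and 10 h) and late (14 and 18 h) times. In each panel the 4 late LW eyes lie wholly above or wholly below the 4 early LW eyes, which was required of the genes named by size. Npas2 of SC eyes lies at 196 to 208 at 6 h and at 119 to 156 at 10 h, where the LW eyes were at 235 to 312.

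The smallest adjusted p was that of BB114814, a gene model with no role given here. It was at 284 and 293 at 6 h, 694 and 587 at 10 h, 1042 and 1092 at 14 h and 1288 and 1247 at 18 h. The rise began before the late phase, with 1.14 (adjusted p = 5.32e-07) from 6 to 10 h and 0.74 (adjusted p = 0.00158) from 10 to 14 h, and the difference over the phase was 1.44 ± 0.078 SE, adjusted p = 1.17e-10. Without the 6 h eyes it was 0.86 (adjusted p = 1.95e-05). It kept its call in every setting but the fit with late and early means, where its adjusted p = 0.115.

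Adamts4, a metalloproteinase that cleaves aggrecan, was lower late, at 92.2 and 68.3 at 6 h, 103 and 108 at 10 h, 48.2 and 65.5 at 14 h and 26.2 and 24.7 at 18 h. It was lower at 14 h than at 10 h and lower again at 18 h. The difference was -1.25 ± 0.21 SE, adjusted p = 0.00211, and without the 18 h eyes -0.69 (adjusted p = 0.369). Sla2, an adaptor that dampens antigen receptor signalling in lymphocytes, was at 64.8 and 118 at 6 h, 26.6 and 19.9 at 10 h, 19.1 and 15.4 at 14 h and 16.8 and 19.7 at 18 h. It was called lower late (log2 difference -1.30 ± 0.23 SE, adjusted p = 0.00261), but the drop lay between the 6 and the 10 h eyes, and without the 6 h eyes the difference was -0.36 (adjusted p = 0.534). Fmo1, a flavin-containing monooxygenase, ranged from 355 to 445 in the early and from 521 to 718 in the late eyes (log2 difference 0.67 ± 0.10 SE, adjusted p = 0.000587). Without the 18 h eyes the difference of Fmo1 was 0.48 (adjusted p = 0.102).

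Of the 21 genes in the 3 clock lists (8 repressors, 9 activators and nuclear receptors, 4 output factors), 6 were higher and 2 lower late. In the background of all genes 0.85% were higher and 0.938% lower. Among the 27 other settings, leaving out single eyes gave 5 to 6 higher and 1 to 2 lower clock genes, without the 18 h eyes 3 were higher and 1 lower, and in the fit with late and early means only Dbp was higher and Npas2 lower.

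The activator Npas2 showed the largest change of the list. It was at 275 and 312 at 6 h, 272 and 235 at 10 h, 107 and 112 at 14 h and 136 and 116 at 18 h. The late level was 0.433 times the early one (log2 difference -1.21 ± 0.11 SE, adjusted p = 1.09e-06). The fall lay between 10 and 14 h, -1.20 (adjusted p = 0.000837). Its partner Arntl was at 1708 and 1797 at 6 h, 1986 and 1969.8 at 10 h, 1682 and 1619 at 14 h and 1531 and 1607 at 18 h, a smaller difference (log2 difference -0.21 ± 0.044 SE, adjusted p = 0.011). This call was lost when any of 4 eyes was left out (adjusted p = 0.0506 to 0.0684, without LW 6 h replicate 2, LW 10 h replicate 1, LW 14 h replicate 2 or LW 18 h replicate 1), and without the 10 h eyes the difference was -0.12 (adjusted p = 0.238). Clock, the paralog of Npas2, had a difference of -0.20 (adjusted p = 0.469), so its late and early levels were not separated by this test.

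The output factors Dbp and Tef were higher late. Dbp passed the fit with late and early means, so little spread inside a phase is no further finding for it. Dbp was at 3297 and 3279 at 6 h, 3438 and 3170.4 at 10 h, 4334 and 4374 at 14 h and 4387 and 4192 at 18 h, and all 4 late eyes were above all 4 early eyes with almost no difference between the 2 times of a phase (log2 difference 0.39 ± 0.045 SE, adjusted p = 1.59e-05). Tef was at 7206 and 7126 at 6 h, 6826 and 6757 at 10 h, 8411 and 8161 at 14 h and 9749.9 and 9093 at 18 h, again without overlap (log2 difference 0.34 ± 0.032 SE, adjusted p = 1.09e-06). The third factor of the family, Hlf, had a difference of 0.067 (adjusted p = 0.602), and Nfil3, which represses at the same elements, one of -0.22 (adjusted p = 0.314).

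Among the repressors, Per3 was at 4159.7 and 4426 at 6 h, 4099 and 4321 at 10 h, 4948 and 5092 at 14 h and 5498 and 5496 at 18 h, and the late eyes were all above the early eyes (log2 difference 0.31 ± 0.033 SE, adjusted p = 5.55e-06). Per2 was at 973 and 1008 at 6 h, 1064 and 1084 at 10 h, 1227 and 1160.2 at 14 h and 1735 and 1672 at 18 h. Its 14 h eyes lay only a little above its 10 h eyes and its 18 h eyes far above them (log2 difference 0.47 ± 0.049 SE, adjusted p = 4.53e-06), and the difference was 0.21 (adjusted p = 0.154) without the 18 h eyes and 0.72 (adjusted p = 1.4e-07) without the 14 h eyes. Ciart, a repressor that binds the CLOCK and ARNTL pair, was at 257 and 287 at 6 h, 264 and 253 at 10 h, 334 and 352 at 14 h and 414 and 303 at 18 h. The groups did not overlap (log2 difference 0.40 ± 0.091 SE, adjusted p = 0.0227), yet the call was lost when any of 6 eyes (each but LW 6 h replicate 2 and LW 18 h replicate 2) was left out, with an adjusted p of 0.0509 to 0.155. Per1 (0.046, adjusted p = 0.837), Cry1 (-0.16, adjusted p = 0.204) and Cry2 (0.072, adjusted p = 0.574) did not pass the test. Cry1 was higher at 10 h than at 6 h, by 0.28 (adjusted p = 0.019), and fell by 0.34 (adjusted p = 0.0336) from 10 to 14 h. These steps share the 10 h eyes.

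Rorb, the ROR receptor of the retina, was called higher late (log2 difference 0.28 ± 0.051 SE, adjusted p = 0.00345) with overlapping groups. It was at 5638 and 4979.6 at 6 h, 3054 and 3218 at 10 h, 4568 and 4902 at 14 h and 5228 and 5084 at 18 h. The 10 h eyes stood apart from the rest, and without them the sign turned, with a difference of -0.10 (adjusted p = 0.438). For the REV-ERB receptors the differences were 0.13 (adjusted p = 0.245) for Nr1d1 and 0.28 (adjusted p = 0.262) for Nr1d2.

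**Figure D2:**
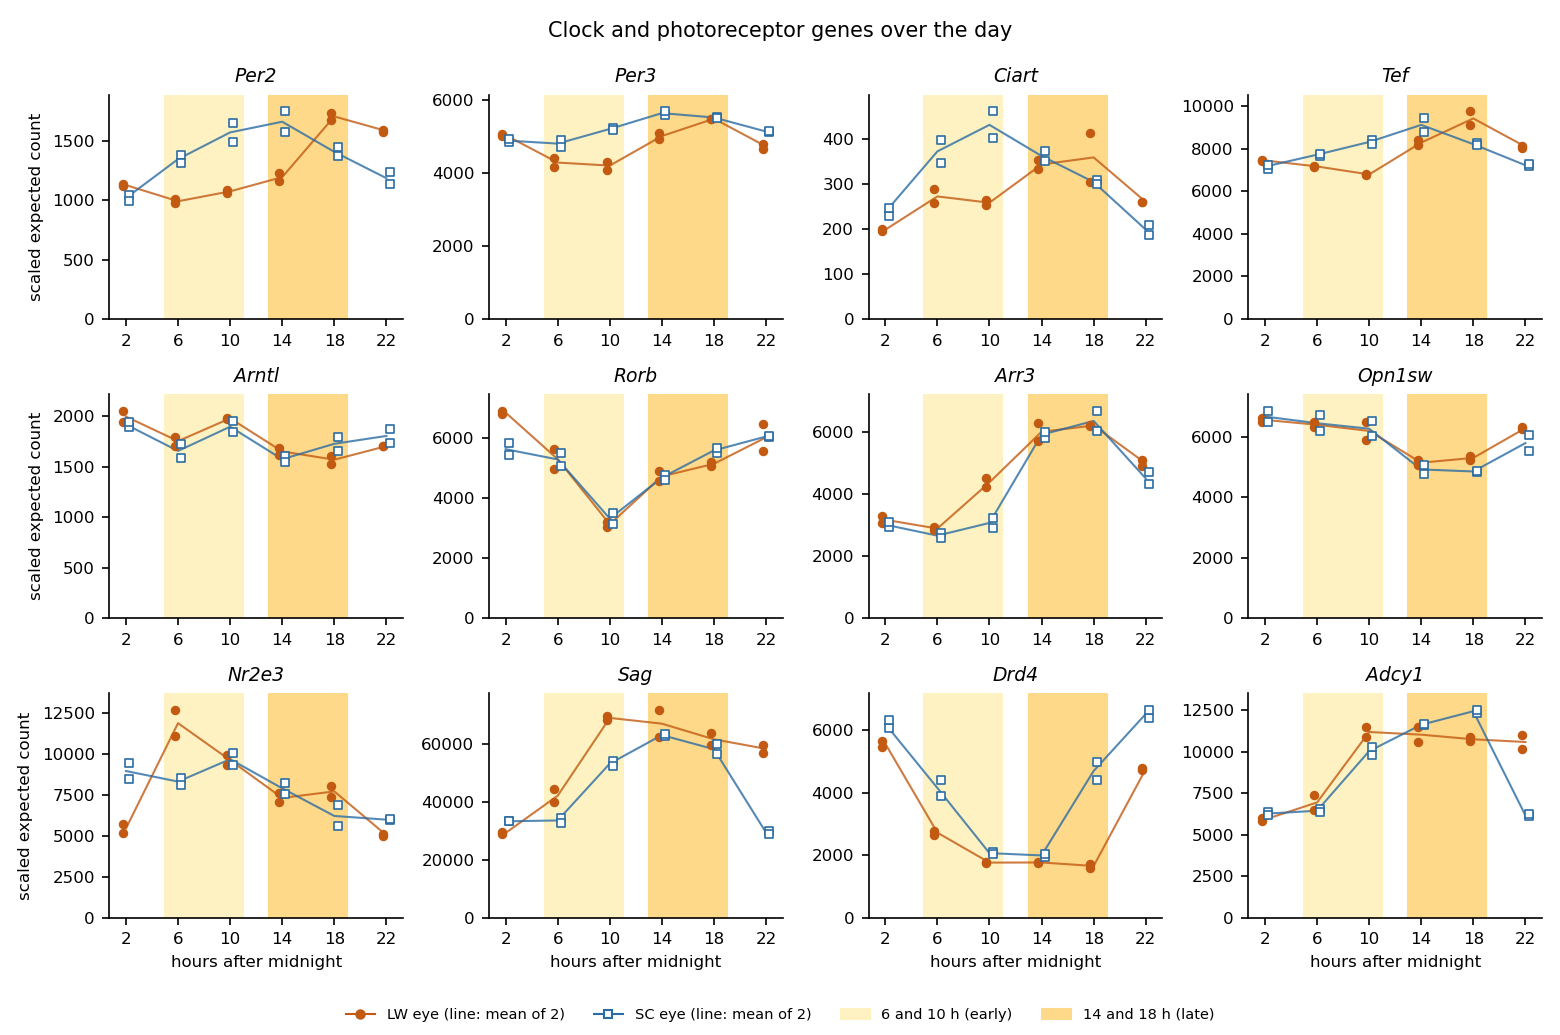
Scaled expected counts (vertical axes, from 0) of 6 clock genes and 6 photoreceptor genes against hours after midnight, drawn as filled points for single LW eyes, open squares for single SC eyes and lines through the mean of 2 eyes, with the early and late times shaded. Per2, Ciart and Tef of the SC eyes are higher than those of the LW eyes at 6 and 10 h, whereas Rorb has its lowest values at 10 h in both conditions, at 3054 to 3512.

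The promoters of the called clock genes were searched for the elements through which the loop is known to run, and those with a match are shown. RefSeq tables of GRCm38.p6 held a window for 7 of the 8 genes (none for Per2), 10 windows in all, and the 250 bases before each start were searched on both strands for the E-box CACGTG, the D-box TTACGTAA or TTATGTAA, the ROR element ANTAGGTCA or ANTGGGTCA and the cyclic AMP element TGACGTCA. Of all 32851 windows of this length, 6.021% held the E-box, 0.931% the D-box, 1.212% the ROR element and 1.546% the cyclic AMP element. Windows of 3 of the 7 genes held a match, and their sequences are printed 5′ to 3′ with the matches in capitals. Ciart (chr3:95882229-95882478, minus strand) held 3 E-boxes, starting at -116, -58 and -44 from the first transcribed base, and Tef (chr15:81802423-81802672 and chr15:81811164-81811413, plus strand) held 1 in each of its windows, at -127 and at -138. Per3 (chr4:151044666-151044915, minus strand) held 2 D-boxes, at -205 and -158.
Ciart: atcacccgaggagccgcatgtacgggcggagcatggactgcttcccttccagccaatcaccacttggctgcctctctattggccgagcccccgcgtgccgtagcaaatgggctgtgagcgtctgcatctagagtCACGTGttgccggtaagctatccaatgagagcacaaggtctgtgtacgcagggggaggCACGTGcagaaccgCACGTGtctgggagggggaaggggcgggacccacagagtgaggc
Tef, first window: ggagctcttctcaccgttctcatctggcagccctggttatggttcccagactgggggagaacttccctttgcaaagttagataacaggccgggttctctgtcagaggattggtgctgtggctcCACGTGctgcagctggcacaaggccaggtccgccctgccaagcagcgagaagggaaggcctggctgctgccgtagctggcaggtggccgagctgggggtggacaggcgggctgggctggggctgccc
Tef, second window: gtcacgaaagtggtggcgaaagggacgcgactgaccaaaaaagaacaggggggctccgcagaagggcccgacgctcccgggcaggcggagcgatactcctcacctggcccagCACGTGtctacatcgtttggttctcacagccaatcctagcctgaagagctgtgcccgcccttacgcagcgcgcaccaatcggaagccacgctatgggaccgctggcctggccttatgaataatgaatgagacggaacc
Per3: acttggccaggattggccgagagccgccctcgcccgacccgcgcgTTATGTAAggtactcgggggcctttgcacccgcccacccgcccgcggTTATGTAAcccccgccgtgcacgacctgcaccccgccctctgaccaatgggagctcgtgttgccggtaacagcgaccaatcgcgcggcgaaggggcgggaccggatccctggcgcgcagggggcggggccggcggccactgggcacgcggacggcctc
The windows of Npas2, Dbp, Arntl and Rorb held none of these letters. By the gene positions given above, the Npas2 window (chr1:39194022-39194271) lies inside the gene. The Dbp window (chr7:45704997-45705246) reaches into its gene. The bases before these 2 genes were therefore not fully searched. All 3 genes with a match were higher late, as were Dbp and Rorb without one, and a match of letters is no measurement of binding.

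Cone and rod genes were next compared, since photoreceptors make up most of the retina. Of 13 cone phototransduction genes 1 was higher and 1 lower late, and of 24 rod genes 1 was higher and 1 lower, against 0.85% higher and 0.938% lower of all genes tested. The summed level of the rod list was 1285159 to 1458091 scaled expected counts in the early and 1230431 to 1341098 in the late eyes, ranges that overlapped. Arr3, the cone arrestin that shuts off activated cone opsins, was at 2859 and 2934 at 6 h, 4250.2 and 4523 at 10 h, 5739 and 6302 at 14 h and 6199.8 and 6249 at 18 h. The level was higher at 10 h than at 6 h, by 0.60 (adjusted p = 4.3e-06), and higher again at 14 h, by 0.46 (adjusted p = 0.00156), and the late eyes were all above the early eyes (log2 difference 0.78 ± 0.047 SE, adjusted p = 5.82e-10). Without the 6 h eyes the difference was 0.48 (adjusted p = 5.92e-05). Opn1sw, the short-wavelength cone opsin, went the other way, at 6315 and 6479.5 at 6 h, 5902 and 6482 at 10 h, 5059 and 5227 at 14 h and 5356 and 5248 at 18 h. Its late eyes were all below its early eyes (log2 difference -0.27 ± 0.042 SE, adjusted p = 0.000729).

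Nr2e3, the nuclear receptor that keeps rods from expressing cone genes, was at 11067 and 12684 at 6 h, 9311 and 9919 at 10 h, 7581 and 7035 at 14 h and 8067 and 7348 at 18 h. It fell by 0.30 (adjusted p = 0.0272) from 6 to 10 h and fell by 0.40 (adjusted p = 0.0319) from 10 to 14 h, and the groups did not overlap (log2 difference -0.51 ± 0.061 SE, adjusted p = 7.56e-05). Arr3, Opn1sw and Nr2e3 kept their calls in every setting but the fit with late and early means (adjusted p = 0.101, 0.0833 and 0.0736). Sag, the rod arrestin, was called higher late (log2 difference 0.25 ± 0.042 SE, adjusted p = 0.00159) although it stood at 39873 and 44330.0 at 6 h, 69770.0 and 68187 at 10 h, 62245 and 71729 at 14 h and 63691 and 59474 at 18 h. Here the 6 h eyes alone were low, and without them the sign turned, -0.11 (adjusted p = 0.276).

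Of 11 genes of photoreceptor cyclic AMP and melatonin signalling, 1 was higher and 2 lower late, against 0.85% higher and 0.938% lower of all genes tested. Drd4, the dopamine receptor of photoreceptors that lowers cyclic AMP, was at 2657 and 2784 at 6 h, 1769.8 and 1751 at 10 h, 1756 and 1773 at 14 h and 1713 and 1592 at 18 h. The 6 h eyes were high and the other 6 eyes lay between 1592 and 1773 (log2 difference -0.36 ± 0.045 SE, adjusted p = 5.58e-05), and without the 6 h eyes the difference was -0.045 (adjusted p = 0.721). Adcy1, a calmodulin-stimulated adenylyl cyclase, had low 6 h eyes, at 6481 and 7414 at 6 h, 11484 and 10920.0 at 10 h, 10577 and 11500.0 at 14 h and 10890.0 and 10631 at 18 h (log2 difference 0.31 ± 0.041 SE, adjusted p = 0.000128). Its difference without them was -0.040 (adjusted p = 0.73). Pde8a, a phosphodiesterase specific for cyclic AMP, likewise differed by -0.32 (adjusted p = 0.00479) and without the 6 h eyes by -0.084 (adjusted p = 0.604). In Sag, Drd4, Adcy1 and Pde8a, late and early eyes thus differed through the 6 h eyes. None of 11 dopamine synthesis and handling genes was called, Th, the tyrosine hydroxylase, with -0.12 (adjusted p = 0.872).

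The cell cycle was the list with the most calls. Of its 35 genes, 5 were higher and 16 lower late, where 0.85% of all genes tested were higher and 0.938% lower. After these values were seen, the list was split by function into 15 genes of the G1/S transition and DNA replication and 20 of mitosis and its control. All 5 higher genes fell in the first part (median log2 difference 0.37) and all 16 lower genes in the second (median -0.73), against a median of 0 over all genes tested. No test was made of the split, since it was drawn on these values.

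Mcm3, a subunit of the replicative helicase, was at 240.1 and 263 at 6 h, 223 and 249 at 10 h, 278 and 339 at 14 h and 498 and 379 at 18 h. The late eyes were above the early eyes (log2 difference 0.58 ± 0.095 SE, adjusted p = 0.00128), mostly through 18 h, and without these eyes the difference was 0.33 (adjusted p = 0.304). Mcm6, another helicase subunit, was at 576 and 613 at 6 h, 513 and 498 at 10 h, 657 and 717 at 14 h and 841 and 739 at 18 h, with late eyes above early eyes (log2 difference 0.42 ± 0.069 SE, adjusted p = 0.00137). Cdc6, which loads the helicase at origins, ranged from 38.3 to 53.8 in the early and from 69.6 to 116 in the late eyes (log2 difference 0.83 ± 0.16 SE, adjusted p = 0.00487). Without the 18 h eyes neither Mcm6 (0.32, adjusted p = 0.105) nor Cdc6 (0.60, adjusted p = 0.254) was called.

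Ccnb1, the mitotic cyclin B1, was at 129 and 159 at 6 h, 117 and 99.4 at 10 h, 70.7 and 81.9 at 14 h and 67.2 and 43.2 at 18 h. The level was lower at each later time, in steps none of which passed the test by itself, and late eyes were all below early eyes (log2 difference -0.95 ± 0.17 SE, adjusted p = 0.00302). Without the 18 h eyes the difference was -0.70 (adjusted p = 0.198). Nusap1, a spindle protein, was at 161 and 198 at 6 h, 84.9 and 109.9 at 10 h, 64.9 and 67.6 at 14 h and 78.5 and 69.0 at 18 h, with a difference of -0.90 ± 0.13 SE, adjusted p = 0.000227. From 6 to 10 h it fell by 0.88 (adjusted p = 0.00232), and without the 6 h eyes the late minus early difference was -0.46 (adjusted p = 0.0956). Plk1, the polo-like kinase of mitosis, ranged from 120 to 160 in the early eyes and from 62.5 to 101 in the late eyes (log2 difference -0.87 ± 0.17 SE, adjusted p = 0.00757). Its call was lost without LW 10 h replicate 1 or without LW 14 h replicate 2 (adjusted p = 0.0628 and 0.0669).

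Single calls of this list depended on the eyes used. Over the 27 alternative settings the medians were between -0.81 and -0.48 for the mitosis and between 0.27 and 0.51 for the replication genes. The list was split on these values and the settings reuse the same LW eyes, so medians that keep their sign are no independent sign. The 16 lower mitosis genes were 9 in fits of the LW eyes alone, 5 without the 6 h eyes and 1 without the 18 h eyes. They were 0 in the fit with late and early means and 5 to 14 when single eyes were left out, with 5 to 7 without LW 10 h replicate 1, LW 6 h replicate 2, LW 14 h replicate 2 or LW 18 h replicate 2. The 5 higher replication genes were 4 or 5 without single eyes and 0 without the 18 h eyes. Markers of the corneal and conjunctival epithelium, a dividing tissue, summed to 398099.5 to 470497 scaled expected counts in the early and 431301 to 480641 in the late eyes, ranges that overlapped. Of its 28 genes 2, Elf3 (-0.24, adjusted p = 0.00245) and Cldn4 (-0.29, adjusted p = 0.0204), were called lower, against 0.938% of all genes tested. Cldn4 lost its call when any of 5 of the 8 eyes was left out (adjusted p = 0.0756 to 0.11). Without the 10 h eyes neither Elf3 (-0.092, adjusted p = 0.378) nor Cldn4 (-0.15, adjusted p = 0.361) was called, and without the 18 h eyes neither was (adjusted p = 0.274 and 0.364). From 6 to 10 h 7 of the 28 rose, or 0 to 4 with single eyes left out, where 7.11% of all genes tested rose.

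**Figure D3:**
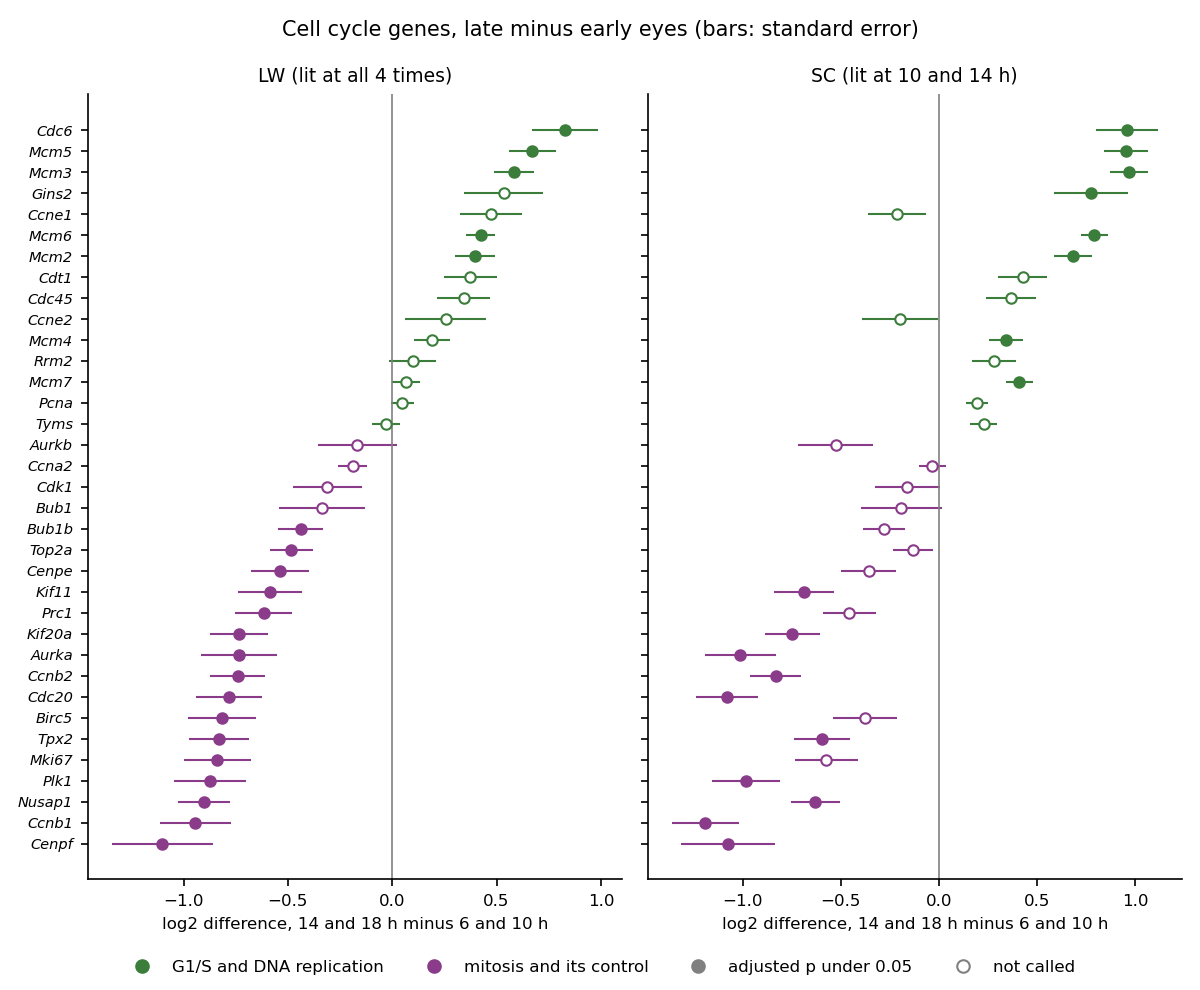
Log2 differences (horizontal axes) between the 14 and 18 h eyes and the 6 and 10 h eyes for 35 cell cycle genes in LW and SC, with bars for the standard error and filled points for an adjusted p under 0.05. Filled points of the replication genes lie right of 0 and those of the mitosis genes left of 0 in both panels, 5 and 16 in LW and 8 and 10 in SC (7 and 6 in SC without the 2 libraries with liver transcripts).

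The comparison of late with early means joins times that differed among themselves, and the steps were therefore also tested, with 2 eyes against 2. From 6 to 10 h, 1297 genes rose and 1063 fell (7.11% and 5.83%, 12.9% in all), from 10 to 14 h 69 rose and 115 fell (0.378% and 0.631%, 1.01% in all), and from 14 to 18 h 7 genes were called (0.0384%). These counts moved with single eyes. Leaving out 1 eye of a step gave 728 (without LW 6 h replicate 1) to 2277 for the first, 12 (without LW 10 h replicate 1) to 51 for the second and 1 to 2 for the third. At an unadjusted p under 0.05 the 3 steps held 5033, 2509 and 1152 genes.

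Several stress and metabolic lists had their highest levels at 10 h, inside the early group. Fewer of their genes were called between late and early means than from 6 to 10 h. Of all genes tested, 7.11% rose from 6 to 10 h and 0.631% fell from 10 to 14 h, and 0.85% were higher and 0.938% lower late. Of 19 heat shock chaperones 13 rose from 6 to 10 h, 6 fell from 10 to 14 h, and 1 (Hsp90aa1) was lower late. Of 24 immediate early genes the counts were 10, 6 and 3, the last being Jund, Ier5 and Jun. Of 19 endoplasmic reticulum stress genes 11 rose from 6 to 10 h and 2, Calr and Pdia3, were higher late. With single eyes left out, the rises from 6 to 10 h were 9 to 10 heat shock, 4 to 8 immediate early and 5 to 10 endoplasmic reticulum stress genes. The falls from 10 to 14 h were 0 to 4 heat shock genes (0 without LW 10 h replicate 1) and 0 to 2 immediate early genes (0 without LW 10 h replicate 1 or LW 14 h replicate 2). The steps share the 10 h eyes, so a fall after a rise is no independent sign.

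Of 23 fatty acid oxidation and ketone genes 9 rose from 6 to 10 h (6 whichever eye was left out), 2 fell from 10 to 14 h, and 3 were lower late, Pdk4 and Angptl4 among them. For this list and the next, the shares over all genes tested were 7.11% rising from 6 to 10 h and 0.631% falling from 10 to 14 h. Late against early they were 0.85% higher and 0.938% lower. Of 16 genes of the glucocorticoid response and metallothioneins 8 rose from 6 to 10 h (5 to 6 with single eyes left out), and late against early Tsc22d3 was higher (0.35, adjusted p = 0.00629) and Pdk4 and Mt1 were lower. Pdk4, the kinase that shuts off pyruvate dehydrogenase and a known target of glucocorticoids, was at 109.6 and 93.6 at 6 h, 504 and 733 at 10 h, 158 and 114 at 14 h and 74.7 and 69.0 at 18 h. Only the 10 h eyes were high, since the level rose by 2.57 (adjusted p = 4.75e-07) and then fell by 2.17 (adjusted p = 6.96e-05). The call of lower late (log2 difference -1.33 ± 0.17 SE, adjusted p = 7.56e-05) thus came from 1 time, and without the 10 h eyes the difference was -0.044 (adjusted p = 0.951). Without the 10 h eyes the sign turned in Mt1, a metallothionein, from -0.27, adjusted p = 0.0454 to 0.057, adjusted p = 0.797. Hspa1a, a stress-inducible chaperone whose near-identical copy Hspa1b can share its reads, was at 2314 and 2989 at 6 h, 4686 and 4251 at 10 h, 2908 and 2921 at 14 h and 2979 and 3214 at 18 h, and its late and early means were not separated by the test (-0.19, adjusted p = 0.163). Jund, a subunit of AP-1, was at 2179 and 2164 at 6 h, 2868 and 2548 at 10 h, 2212 and 2028 at 14 h and 1529 and 1745 at 18 h (log2 difference -0.38 ± 0.067 SE, adjusted p = 0.00302). Its difference was -0.22 (adjusted p = 0.147) without the 10 h eyes and -0.19 (adjusted p = 0.457) without the 18 h eyes.

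Genes of cholesterol synthesis and uptake took the opposite course, with 7 of 23 falling from 6 to 10 h and 6 rising from 10 to 14 h, again with the 10 h eyes in both steps. With single eyes left out 5 to 6 fell in the first step and 0 to 3 rose in the second (0 without LW 10 h replicate 1). Late against early, 2 of the 23, Sqle and Nsdhl, were higher. Of all genes tested, 5.83% fell from 6 to 10 h, 0.378% rose from 10 to 14 h and 0.85% were higher late.

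**Figure D4:**
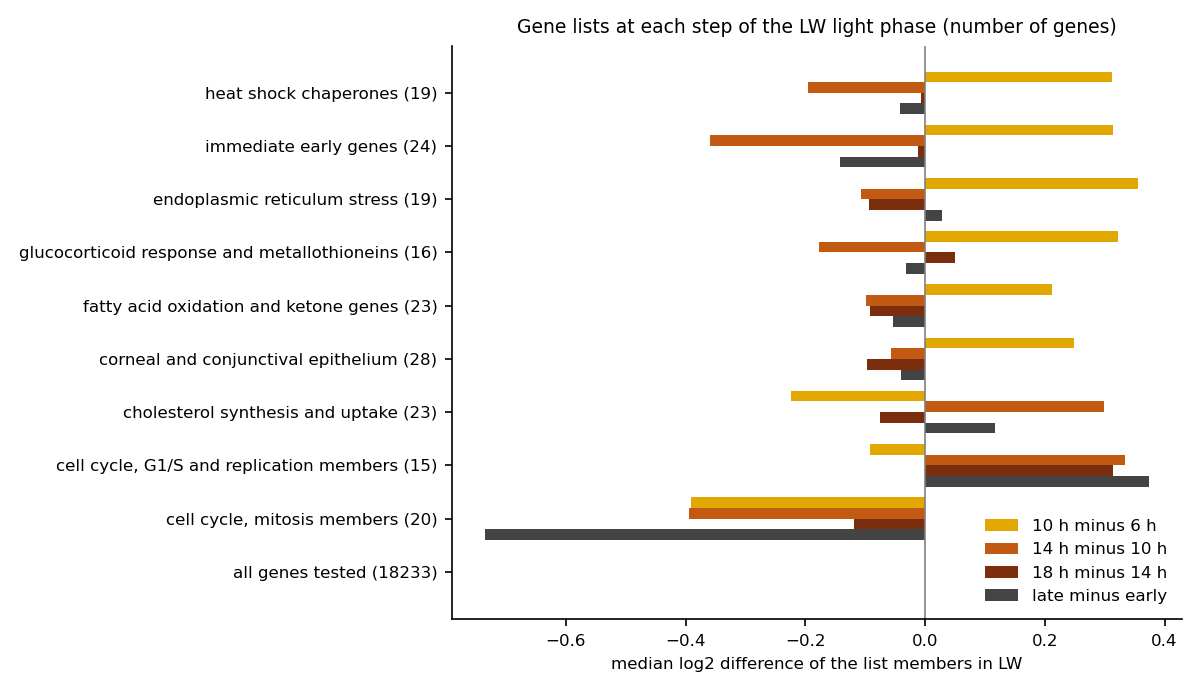
Median log2 difference (horizontal axis) of 9 gene groups and of all genes tested in the LW eyes, with 1 bar for each step of the light phase and 1 for late minus early, and the number of genes tested in parentheses. The bars of heat shock and immediate early genes point right from 6 to 10 h (0.31 and 0.31) and left from 10 to 14 h, those of cholesterol genes the other way, and the mitosis genes have the longest late minus early bar at -0.73.

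Other lists held calls too, where 0.85% of all genes tested were higher and 0.938% lower late. Of 22 genes of the scleral and corneal stroma matrix 3 were lower late. They were Lox (-0.83, adjusted p = 0.0078), Loxl1 (-0.34, adjusted p = 0.00302) and Thbs1 (-0.30, adjusted p = 0.0125), of which Lox and Loxl1 cross-link collagen and elastin. Without the 18 h eyes Loxl1 differed by -0.12 (adjusted p = 0.741), and Lox lost its call without LW 10 h replicate 1 or LW 14 h replicate 2. Of 23 glycolysis genes 3 were higher (Hk2, Pfkfb3, Slc16a3) and 1 lower (Pkm). Of 13 clock-controlled genes Por and Wee1 were higher and Cdkn1a lower, and Por, the reductase that feeds electrons to cytochromes P450, kept its call in every setting but the fit with late and early means (log2 difference 0.24 ± 0.044 SE, adjusted p = 0.00299, then adjusted p = 0.239). Of 12 reference genes 1 was called. This was Hprt, a purine salvage enzyme often used to normalise qPCR, at 2440.5 and 2190.3 at 6 h, 1975 and 2151 at 10 h, 2821 and 2882 at 14 h and 2825 and 2858 at 18 h. All late eyes were above all early eyes (log2 difference 0.38 ± 0.054 SE, adjusted p = 0.000273), whereas Actb (-0.13, adjusted p = 0.0815), Gapdh (-0.079, adjusted p = 0.47) and Eif1ad (0.046, adjusted p = 0.919) did not pass.

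No gene was called in the lists of lens fibres (29 genes), skeletal and extraocular muscle (26), macrophages and microglia (22), liver (20), outer segment phagocytosis (20), NRF2 targets (19), retinal neuropeptides (18), retinal stress (17), melanin synthesis (16) or blood cells (14). Of all genes tested 1.79% were called, and at that share lists of this size can hold no call. In the same fit 2076 genes (11.4%) had an unadjusted p under 0.05. Neither of the 2 cold-inducible RNA-binding genes was called, and of 17 visual cycle genes 1, Lrat, which makes retinyl esters, was higher (0.29, adjusted p = 0.0333). Of 15 cornified skin and hair genes 1, Ivl, was lower late. The calls of Lrat, Mt1, Angptl4 and Tsc22d3 were lost when any of 7, 6, 6 and 2 of the 8 eyes was left out. The calls of Hsp90aa1, Jun, Calr, Pdia3, Sqle, Nsdhl, Thbs1, Hk2, Pfkfb3, Slc16a3, Pkm, Wee1, Cdkn1a and Ivl were each lost when any of 4 to 7 of the 8 eyes was left out, and LW 10 h replicate 1 was among these eyes for all but Calr, Pdia3 and Wee1, which lost theirs without LW 10 h replicate 2.

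The same difference was taken at the same clock times in SC eyes, which were lit at 10 and 14 h and dark at 6 and 18 h. Hours of light and of dark change with the clock time there too, so a shared sign does not tell clock time and light apart. In SC 369 genes (2.02%) were higher and 263 (1.44%) lower at 14 and 18 h, 632 or 3.47% in all, and 386 without the 2 libraries with liver transcripts. With single SC eyes left out the count was 339 (without SC 18 h replicate 2) to 600. Of the 326 genes called in LW, 291 (89.3%) had the same sign in SC, against 56.7% of all genes tested, and 134 were called in SC in the same direction and 3 in the opposite one. Without the 2 libraries with liver transcripts 281 (86.2%) had the same sign, against 57.4% of all genes tested, and 91 were called in the same and 4 in the opposite direction. Pcdh15 was higher in SC by 0.83 (adjusted p = 4.57e-07), 5430419D17Rik by 1.60 (adjusted p = 1.38e-07), BB114814 by 1.39 (adjusted p = 1.14e-10) and Pla2r1 by 0.58 (adjusted p = 1.69e-08). For Ccnb1 the SC difference was -1.19 (adjusted p = 0.000166) and for Mcm3 0.97 (adjusted p = 9.47e-07). In the cell cycle list, 8 replication genes were higher and 10 mitosis genes lower in SC, against 7 and 6 without the 2 libraries with liver transcripts. The calls lost in this way included those of Kif11 (adjusted p = 0.136), a spindle motor, Tpx2 (0.0778), a spindle assembly factor, and Cenpf (0.167), a kinetochore protein.

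The difference between the LW and the SC change was tested directly and was called in 38 genes (0.208%), 16 of them among the 326. With single eyes left out 16 (without SC 18 h replicate 2) to 60 (without SC 10 h replicate 2) genes were called, and without the 2 libraries with liver transcripts 57. Among the 12 genes named here for such a difference, Npas2, Dbp, Nr1d1, Drd4, Jund, Cd99 and Slc7a1 kept their call without any single eye of the 16. Adcy1 lost it without 13 of these eyes, Arr3 without 12, Ciart without 11, Tef without 8 and Per2 without SC 18 h replicate 2 alone. Without both libraries with liver transcripts Adcy1 (adjusted p = 0.0876), Arr3 (0.177) and Tef (0.0801) were not called. Npas2 differed by -1.04, adjusted p = 0.00473. In SC it was at 208 and 196 at 6 h, 156 and 119 at 10 h, 145 and 133 at 14 h and 159.8 and 152 at 18 h, so that its low values began at 10 h, and the late minus early difference was -0.17 (adjusted p = 0.509). Dbp (0.37, adjusted p = 0.0119), Tef (0.23, adjusted p = 0.0323), Per2 (0.39, adjusted p = 0.0123) and Ciart (0.66, adjusted p = 0.0276) had a higher late minus early difference in LW than in SC. There Per2 was at 1377 and 1312 at 6 h and 1491 and 1648 at 10 h and at 1573 and 1746 at 14 h and 1443 and 1369 at 18 h. Nr1d1, the REV-ERB alpha receptor, was not called in LW but fell late in SC by 0.38 (adjusted p = 4.95e-05), a difference of 0.51, adjusted p = 0.00146. Dark and light at 6 and 18 h go with the condition here, so the part of light in these differences cannot be told apart from that of day length and temperature.

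Among the photoreceptor genes, Arr3 (-0.32, adjusted p = 0.0424), Drd4 (-0.42, adjusted p = 0.00421) and Adcy1 (-0.28, adjusted p = 0.0447) differed between the conditions. In SC Drd4 was at 3887 and 4422 in the dark at 6 h, at 2098 and 2030.1 in the light at 10 h, at 1949.7 and 2032 in the light at 14 h and at 4416 and 4981 in the dark at 18 h. In LW it was at 5669 and 5479 at 2 h and 4719.7 and 4798 at 22 h, in the dark. Arr3 rose in both conditions, in SC by 1.10 (adjusted p = 8.77e-13). Jund fell in LW and had a difference of 0.20, adjusted p = 0.113 in SC, so that the conditions differed by -0.58, adjusted p = 0.0105, and without the 2 liver libraries it was called higher in SC, with 0.28 (adjusted p = 0.0323). Cd99, a leukocyte and endothelial surface protein, fell late in LW (-0.39, adjusted p = 0.00138) and rose in SC (0.29, adjusted p = 0.0116), a difference of -0.69, adjusted p = 0.00146. Without the 18 h eyes its LW difference was -0.24 (adjusted p = 0.265). Slc7a1, a transporter of cationic amino acids, rose in LW (0.24, adjusted p = 0.0306) and fell in SC (-0.40, adjusted p = 0.000171), a difference of 0.63, adjusted p = 0.00141, though leaving out any of 7 of the 8 LW eyes (each but LW 14 h replicate 2) ended its LW call.

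**Figure D5:**
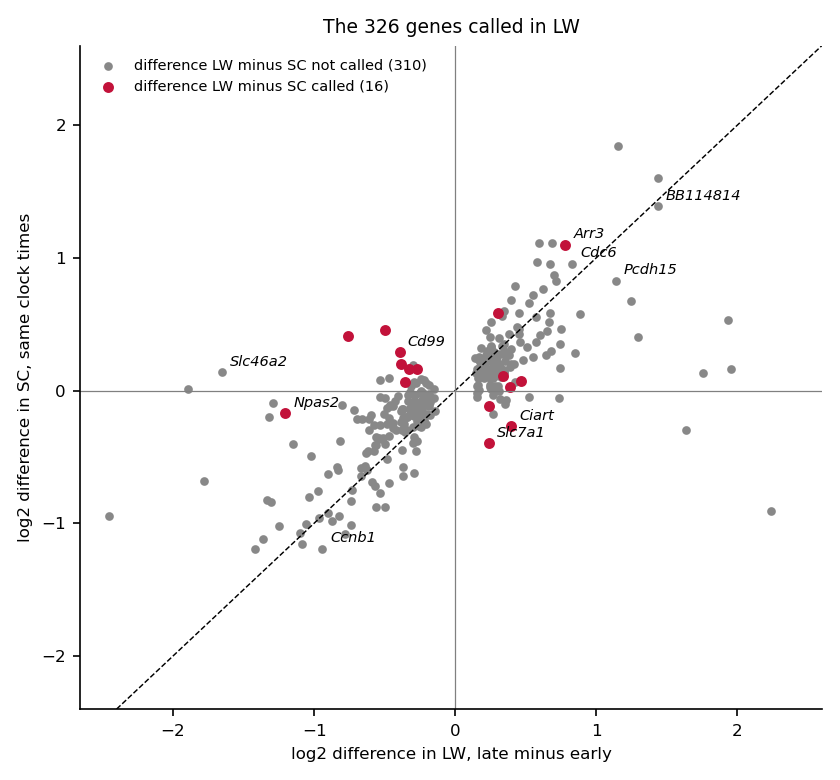
Log2 difference of the 326 genes called in LW (horizontal axis, late minus early) against that of the same genes in SC eyes at the same clock times (vertical axis), with a dashed line of equal change and red points for the 16 genes whose difference between the conditions was called. Points crowd the lower left and upper right, where 291 of the 326 lie (281 without the 2 SC libraries with liver transcripts), while Npas2 lies far left at -1.21 with -0.17 in SC.

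The dark LW eyes at 22 and 2 h were placed by level. At 22 h, 224 of the 326 genes were nearer to their late than to their early mean, and at 2 h 103 were. The share over all genes tested was not taken, so these counts are descriptions only. Arr3 was at 5104 and 4901 at 22 h and 3289 and 3069 at 2 h, close to its 6 h eyes at the second of these times. Cbr2 was at 10445 and 10722 at 22 h and 6119 and 7167 at 2 h, which lie with the late and the early eyes. Pcdh15 was at 2005 and 2514 at 22 h and 3118 and 2974 at 2 h, inside its late range at 2 h, and Dbp was at 3123 and 2991 at 22 h and 2905 and 2853 at 2 h, below all 8 of its lit eyes.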

How the data were processed

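In all, 24 whole eyes of male CBA/N mice (LW and SC, 6 clock times, 2 eyes each) were sequenced from TruSeq stranded, paired-end libraries. The authors filtered the reads with SOAPnuke and mapped them with HISAT2, as the study's methods state, and the submitters' processing notes give HISAT2 as version 2.0.4 and the build as GRCm38.p6. The deposited values are expected counts per gene from RSEM (version not given in the sources used here), 1 column per eye and not pooled. Of the values in the table of 19018 genes, 89.6% are whole to within 1e-06, and 43565 cells without a number (8.90% to 10.3% of a library) were read as 0. RefSeq tables matched 18891 gene IDs.

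Counts were scaled by TMM (trims of 30% of ratios and 5% of levels), and a gene entered the test if 2 or more libraries reached a scaled count of 1. The test was made on log2(scaled count + 1), a scale that understates changes of low genes. limma 3.58.1 (trend and robust options, R 4.3.3) fitted 12 group means over 24 libraries (12 residual degrees of freedom), with Benjamini-Hochberg adjustment over all genes tested and a threshold of 0.05. A count model had been planned, but the table's cells without a number did not pass as counts, so limma took its place as the main test. The fit with late and early means of the 8 eyes had 6 residual degrees of freedom. The code was tested on simulated data. Figures were drawn with Python 3.11.15 and matplotlib 3.10.9.

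The groups, lists and tests were chosen with earlier results of these data known, so counts of a list are descriptions. The text names genes by this rule. They are the 15 largest called differences in each direction without overlap of the groups and with a mean of at least 1 CPM, all clock and photoreceptor cyclic AMP genes, up to 4 genes of each other list by the smallest p, the 5 smallest p of the LW and SC difference, and Th, Gapdh, Actb and Eif1ad. Not all of them are described, and some are not reported here. Il1r1, Pla2r1, Steap3 and the split of the cell cycle list were chosen after their values were seen.

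Alternatives changed the scaling, filter, pseudocount, test, eyes and times. Totals of 19543401 to 28859071 expected counts per library limit the precision for low genes.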

Additional observations from a re-analysis of the deposited data

Results flagged for a closer look

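In 81 genes the 4 late and the 4 early LW eyes were examined for a single eye far from the other 3 by Dixon's test at the 95% level. This held in 10 of 162 groups (6.17%), and for 4 values of 1 population chance alone gives about 1 in 20. The 4 eyes of a group join 2 times, and many of the genes were picked from called ones, so that rate need not hold here. In the late eyes, LW 18 h replicate 2 stood apart with 238 scaled expected counts of Mki67, a proliferation marker, against 377 to 394 in the others. The same eye had 16.03 of Map3k7cl against 27.1 to 28.3, 29127 of Hsp90aa1 against 25766 to 26132, and 1379 of the glycolytic regulator Pfkfb3 against 1249 to 1269. LW 14 h replicate 1 had 928 of Cry1 against 1016 to 1033 and 972 of the lactate transporter Slc16a3 against 870.4 to 874. In the early eyes, LW 6 h replicate 2 had 3346 of Cry2 against 3217 to 3232, 188 of Kif11 against 123 to 134, and 66138 of the pyruvate kinase Pkm against 55637 to 57068, and LW 10 h replicate 1 had 445 of Fmo1 against 355 to 362.

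The late minus early difference of 12 of these genes differed between LW and SC by the interaction test of limma, with SC eyes dark at 6 and 18 h. On the log2 scale the LW difference was lower than the SC difference, by values of -1.04 in Npas2, -0.69 in Cd99, -0.58 in Jund, -0.42 in Drd4, -0.32 in Arr3 and -0.28 in Adcy1. It was higher in Ciart (0.66), Slc7a1 (0.63), Nr1d1 (0.51), Per2 (0.39), Dbp (0.37) and Tef (0.23). Adcy1, Arr3 and Ciart lost this call without 13, 12 and 11 of the 16 single eyes, and Tef and Per2 also lost it without some eye. The part of light, day length and temperature in these differences cannot be told apart.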

How the results depend on the processing

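The 326 calls (155 higher, 171 lower) were 289 to 341 under the other scalings, filters and pseudocounts, limma voom, genes with a number in every library, without the 2 h eyes and without the 2 libraries with liver transcripts. They were 210 (105 lower) from the 12 LW libraries alone, 148 (72 higher, 76 lower) from the 8 lit libraries with 4 time means and 9 (6 and 3) with late and early means. Without the 6 h eyes 705 genes (293 and 412) were called, 176 of them among the 326, without the 10 h eyes 763 (472 and 291, with 216 shared), without the 14 h eyes 240 (92 higher) and without the 18 h eyes 89 (57 and 32, with 79 shared). Leaving out single eyes gave 173 to 271 (92 to 121 higher and 76 to 150 lower), with 173 and 215 without LW 10 h replicates 1 and 2, 190 without LW 6 h replicate 2, 183 without LW 14 h replicate 2 and 213 without LW 18 h replicate 2. The SC count of 632 became 386 without the libraries with liver transcripts and 339 to 600 without single eyes (354 without SC 14 h replicate 1, 414 without SC 10 h replicate 1). The 38 differences between LW and SC became 16 to 60, with 19 to 21 without LW 10 h replicate 1 or 2, LW 14 h replicate 1 or SC 14 h replicate 1. The steps became 728 to 2277 (902 and 1032 without LW 10 h replicates 2 and 1), 12 to 51 and 1 to 2. The eyes of a lit time were left out of the contrast only. Apart from the fewer eyes or means in these fits and contrasts, the cause was not tested.

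With the replicate block 305 genes (149 higher, 156 lower) were called in LW, 606 in SC, 42 for their difference and 2226, 172 and 6 in the 3 steps. Deviations of same-numbered eyes correlated over 0.1 in 13 of 66 pairs of groups (median r = -0.0127), so the numbers were not taken to pair the eyes.

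Of 93 called genes followed through the settings, 3 of them (Il1r1, Pla2r1 and Steap3) added after their values were seen, 9 kept their call in all 27 alternatives, 8 in all but the fit with late and early means (Arr3, BB114814, Hprt, Nr2e3, Opn1sw, Per3, Por and Tef), and 45 lost it without some single eye. The sign turned without the 6 h eyes in Adcy1 (-0.040) and Sag (-0.11), without the 10 h eyes in Mt1 (0.057) and Rorb (-0.10), and without the 18 h eyes in Mt1 (0.077). The other pseudocounts, the filter at 10 counts and the fit without the 2 h eyes were chosen after seeing the data. The other scalings moved the median of all genes by at most 0.00116. A planned DESeq2 test and edgeR's filter by group were not run, since the table did not pass as counts.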
